A study of Mus musculus with 6 samples.

Results

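The 34 genes described here encode the enzymes and carriers of fatty acid oxidation, together with Pdk4, which encodes a kinase of the switch between sugar and fat as fuel. The rule names them by gene symbol and uses no measured value, although the members were chosen with earlier results of these data known. Their probes were found through the accession that each array file gives for a probe. All 34 were found among the 23462 genes matched on the arrays, 29 of them mitochondrial or cytosolic and 5 peroxisomal, and 32 passed the filter on dim probes and were tested among 17062 genes in all. The samples were 6 RNA extracts of BV2 cells, an immortalized mouse microglial line, each on 1 Agilent 1-colour array. The control group (3 arrays) was labelled as BV2 cells without PGC-1α overexpression and the other group (3 arrays) as BV2 cells with PGC-1α overexpression, and both groups had received LPS, a component of bacterial membranes that provokes an inflammatory response. There was therefore no group without LPS. The cell culture methods of the study give 500 ng/ml LPS for 6 h, without naming the arrays, and describe lentiviral delivery of the PGC-1α coding sequence under a ubiquitin promoter, or of a negative control virus, with puromycin selection. The labels do not state whether the 3 extracts of a group came from separate cultures, so the p-values measure the spread between these extracts, which may be technical. In RNA of whole cultures, fewer cells of a type and less RNA per cell cannot be told apart.

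Fatty acids are burnt in a fixed order of steps. A fatty acid is first joined to coenzyme A, then carried into the mitochondrion on carnitine, and then shortened step by step by a dehydrogenase, a hydratase, a second dehydrogenase and a thiolase, while electrons leave through the electron transfer flavoprotein. PGC-1α is a transcriptional coactivator that in heart, muscle and brown fat is known to raise genes of this pathway together with the nuclear receptors PPARα and ERRα. Peroxisomes hold a parallel pathway for very long and branched chains. In macrophages, fatty acid oxidation is commonly discussed as the fuel of the alternative, less inflammatory state, whereas LPS favours glycolysis.

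On all 6 arrays, 9 of the 10 microglial and macrophage markers examined were well above background, and Cx3cr1 was well above background on none. The probes for Ppargc1a, the gene of PGC-1α, were too dim to be tested. The brighter of its probes read -6.21, -6.37 and -7.71 in the control group and -5.70, -5.28 and -5.90 with overexpression, in log2 units relative to the 75th percentile of each array, and was well above background on only 2 arrays of each group. The groups did not overlap on this probe, with a log2 fold change of 1.14 (0.83 after quantile normalization), and the exact permutation p of 0.1 is the smallest that 3 arrays against 3 allow. On the other probe the groups overlapped (log2 fold change of 0.26), so the arrays give no firm check of the labels. The 75th percentile itself lay between 1617 and 1893 intensity units on the control arrays and between 856 and 1268 on the overexpression arrays.

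To determine whether fatty acid oxidation genes differed with PGC-1α overexpression, levels relative to the 75th percentile of each array were compared with limma, and a gene was called when its p-value, adjusted over all 17062 genes, was below 0.05. Of the 32 members tested, 10 were higher (31.2%), against 36.9% of all genes tested, and 3 were lower (9.38%), against 19.6% of all genes. Neither share of the members exceeded that of the arrays as a whole. Their median log2 fold change was 0.19, and that of all genes 0.23. No member reached a log2 fold change of 1 in either direction, whereas 2453 of all genes did. With the other scaling, quantile normalization, which forces the same distribution of intensities on every array and brings the median of all genes to 0.03, 2 members were higher (6.25%, against 21.7% of all genes) and 5 lower (15.6%, against 20.9%), and the median of the members was -0.04. Since the scaling decides the sign or the call of many members, both values are given for the members on which the results turn.

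Under both scalings, 5 members were called in the same direction. The share of all genes called so is not given here, so these 5 are not set against the arrays as a whole. Acsl4, which activates arachidonic acid and other long polyunsaturated fatty acids, and Decr1, the mitochondrial 2,4-dienoyl-CoA reductase, were higher. The carnitine palmitoyltransferase genes Cpt1a, Cpt1c and Cpt2 were lower. A further 8 members were higher with the 75th percentile alone, and Acsl1 and Cpt1b were lower with quantile normalization alone. Cpt1b passed the filter on dim probes through the control group alone, the group where it was higher. The other 17 members tested were called under neither scaling.

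**Figure D1:**
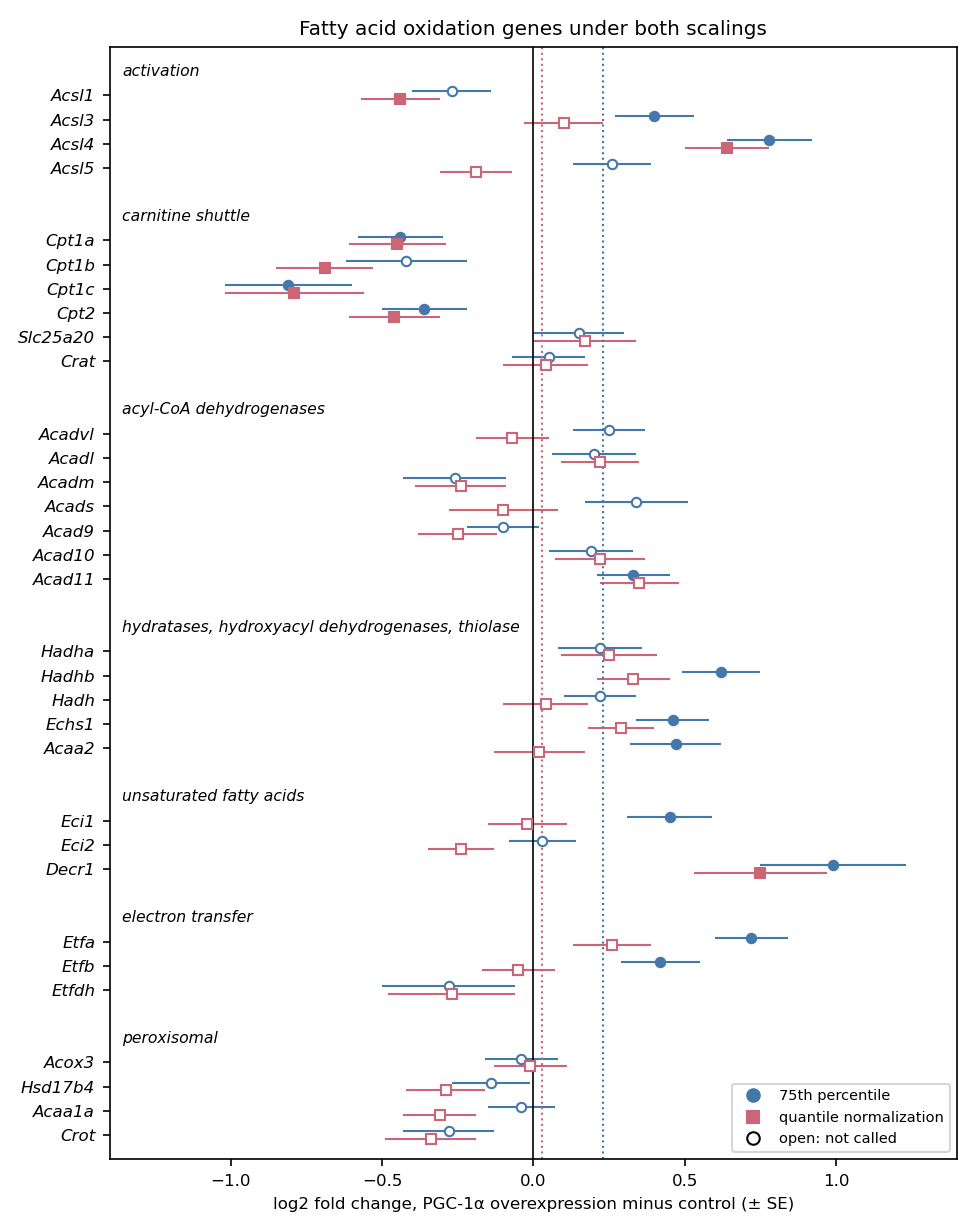
Log2 fold change (PGC-1α overexpression minus control, 3 arrays each, bars ± SE) of the 32 members tested, by role, with the 75th percentile (circles) and with quantile normalization (squares); filled symbols are called at an adjusted p below 0.05 and dotted lines mark the median of all genes, 0.23 and 0.03. The carnitine palmitoyltransferases sit left of 0 under both scalings, and most members to the right of 0 move left after quantile normalization.

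The carnitine shuttle held all 3 members that were lower. Its 6 genes had a median log2 fold change of -0.39 (-0.45 after quantile normalization), and none was higher. Of all genes 36.9% were higher and 19.6% lower, with a median of 0.23 (21.7%, 20.9% and 0.03 after quantile normalization). The difference between these 6 genes and all genes was not tested. Cpt1a encodes the liver form of carnitine palmitoyltransferase 1, the rate-limiting entry step of long-chain fatty acids into mitochondria. It read 0.78, 0.59 and 0.39 in the control group and 0.07, 0.12 and 0.26 with overexpression. Every control array lay above every overexpression array. The log2 fold change was -0.44 ± 0.14 (SE, adjusted p = 0.0296) and -0.45 (adjusted p = 0.0499) after quantile normalization. It was unequal between the slides on which the arrays lay, with a difference of -0.59 on slide 1, with 2 arrays of each group, and -0.13 on slide 2, with 1 of each. The call was lost without control replicate 1 (-0.34) or 2 (-0.43) and without overexpression replicate 1 (-0.40) or 2 (-0.42).

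Cpt1c, the brain form, which sits in the endoplasmic reticulum and has little catalytic activity, gave the largest negative value of the members. Its levels were 0.13, 0.08 and -0.53 in the control group and -0.90, -0.69 and -1.14 with overexpression. The groups were separate, although the control array of slide 2 stood below the other two controls. The log2 fold change was -0.81 ± 0.21 (adjusted p = 0.0116), or 0.572 times the control, and -0.79 (adjusted p = 0.0266) after quantile normalization. A dimmer second probe of Cpt1c did not follow, with a log2 fold change of 0.02 (adjusted p = 0.943 over all probes).

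Cpt2 encodes the enzyme that returns the fatty acid from carnitine to coenzyme A inside the mitochondrion. It read 1.37, 1.13 and 1.11 in the control group and 0.81, 0.99 and 0.72 with overexpression, again without overlap. Its log2 fold change of -0.36 ± 0.14 lay just inside the threshold (adjusted p = 0.0499), and was -0.46 (adjusted p = 0.0371) after quantile normalization. Of the fits that left out 1 array, only the one without overexpression replicate 2 kept the call, and the others gave values from -0.28 (without control replicate 1) to -0.41 (without control replicate 3). The second probe of Cpt2 gave -0.20 (adjusted p = 0.329 over all probes). The difference was nearly equal on both slides, -0.35 and -0.39.

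Cpt1b, the muscle form, was dim in these cells, well above background in all 3 control samples but in only 1 with overexpression. It was tested only because the control group passed the filter, so its lower value with overexpression is limited by background. It is nevertheless counted in the median of the carnitine shuttle and among the members lower after quantile normalization. Its levels were -6.20, -5.67 and -5.87 in the control group and -6.28, -6.03 and -6.68 with overexpression. The groups overlapped, and the log2 fold change of -0.42 ± 0.20 was not called (adjusted p = 0.109), while after quantile normalization it was -0.69 (adjusted p = 0.0105). With normexp background correction before the 75th percentile its sign turned, to 0.25. The carrier Slc25a20, which moves acylcarnitine across the inner membrane, gave 0.15 (adjusted p = 0.424), and the carnitine acetyltransferase gene Crat 0.05 (adjusted p = 0.743). Neither of these was called under either scaling.

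The promoter windows of the 3 carnitine palmitoyltransferase genes that were lower under both scalings are shown. The genes were picked by these calls, and whether they moved together across the arrays was not tested. They are RefSeq windows of mouse assembly GRCm38.p6, from 250 bases before to 50 bases after the annotated start, written 5′ to 3′ on the strand of the gene. Capitals mark the nuclear receptor half-site AGGTCA, the letters to which ERR and PPAR-type receptors can bind, or its reverse complement. Cpt1a lies on the plus strand at chr19:3323051-3323350, Cpt1c on the minus strand at chr7:44974802-44975101 and Cpt2 on the minus strand at chr4:107923540-107923839.
Cpt1a: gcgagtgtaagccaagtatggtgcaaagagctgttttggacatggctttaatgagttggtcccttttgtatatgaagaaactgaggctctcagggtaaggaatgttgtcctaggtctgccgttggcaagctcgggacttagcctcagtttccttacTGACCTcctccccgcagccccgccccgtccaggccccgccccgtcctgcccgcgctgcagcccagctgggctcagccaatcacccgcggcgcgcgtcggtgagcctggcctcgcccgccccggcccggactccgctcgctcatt
Cpt1c: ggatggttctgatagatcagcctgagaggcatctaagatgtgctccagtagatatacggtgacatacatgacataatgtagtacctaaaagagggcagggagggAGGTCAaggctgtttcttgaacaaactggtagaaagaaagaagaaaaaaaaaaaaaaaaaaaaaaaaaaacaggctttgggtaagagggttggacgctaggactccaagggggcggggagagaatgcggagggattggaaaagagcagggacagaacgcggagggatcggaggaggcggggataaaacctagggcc
Cpt2: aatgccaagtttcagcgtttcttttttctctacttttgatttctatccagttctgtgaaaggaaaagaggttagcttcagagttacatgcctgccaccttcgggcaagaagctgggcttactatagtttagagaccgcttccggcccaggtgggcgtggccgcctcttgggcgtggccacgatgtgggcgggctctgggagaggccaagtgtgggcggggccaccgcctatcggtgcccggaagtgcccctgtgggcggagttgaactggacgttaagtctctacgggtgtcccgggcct
The half-site stood once in the Cpt1a window, in reverse orientation, at position -94 from the start, and once in the Cpt1c window at position -146. The Cpt2 window did not hold these letters. Of the 34 members, 28 had windows in the RefSeq table, 29 windows in all. The half-site, searched on both strands, was in 5 of these 29 windows (17.2%) and in 16.3% of the 32851 promoter windows of the table. The 5 genes were Cpt1a, Cpt1c, Echs1, Acadm and Acadvl, of which 2 were lower, 1 was higher with the 75th percentile alone and 2 were not called. The longer ERR site TNAAGGTCA, which contains the half-site, was in none of the 29 windows (1.28% of all promoters), and neither was the direct repeat of the half-site with 1 base between, the DR1 element of PPARs (0.0396% of all promoters).

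Among the genes of fatty acid activation, whose long-chain acyl-CoA synthetases join fatty acids to coenzyme A, Acsl4 had the largest log2 fold change. It read 0.98, 1.05 and 1.18 on the control arrays and 1.95, 1.65 and 1.95 with overexpression. The lowest overexpression array was well above the highest control array. This gave a log2 fold change of 0.78 ± 0.14 (adjusted p = 0.00266), or 1.72 times the control, and 0.64 (adjusted p = 0.00723) after quantile normalization, and it was nearly equal on both slides (0.78 and 0.77). Acsl4 was called higher under each of the 17 alternative settings, with log2 fold changes from 0.38 to 0.88. The lowest was that with the mean of the tested probes (adjusted p = 0.0374). Settings that keep the same probe do not test the choice of probe. The 3 probes of Acsl4 did not all move alike, since another gave 0.67 (adjusted p = 0.0085 over all probes) and the remaining probe -0.24 (adjusted p = 0.301). On the control arrays the remaining probe was brighter than the probe that stands for Acsl4 (mean of 1.21 against 1.07). With overexpression it was dimmer (0.97 against 1.85).

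The calls of Acsl3 and Acsl1 depended on the scaling. Acsl3, a synthetase of the endoplasmic reticulum and lipid droplets, read 2.07, 2.36 and 2.33 in the control group and 2.56, 2.70 and 2.68 with overexpression, and its log2 fold change fell from 0.40 (adjusted p = 0.0324) to 0.10 (adjusted p = 0.593) after quantile normalization. Its call was lost without any 1 of the 6 arrays (0.30 to 0.45). Acsl1, the synthetase commonly induced in macrophages by LPS, read 1.86, 1.57 and 1.73 in the control group and 1.43, 1.54 and 1.38 with overexpression. These groups were separate by a narrow gap. The log2 fold change of Acsl1 was -0.27 (adjusted p = 0.103) and -0.44 (adjusted p = 0.0277) after quantile normalization. Acsl5 gave 0.26 (adjusted p = 0.123) and -0.19 (adjusted p = 0.24).

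**Figure D2:**
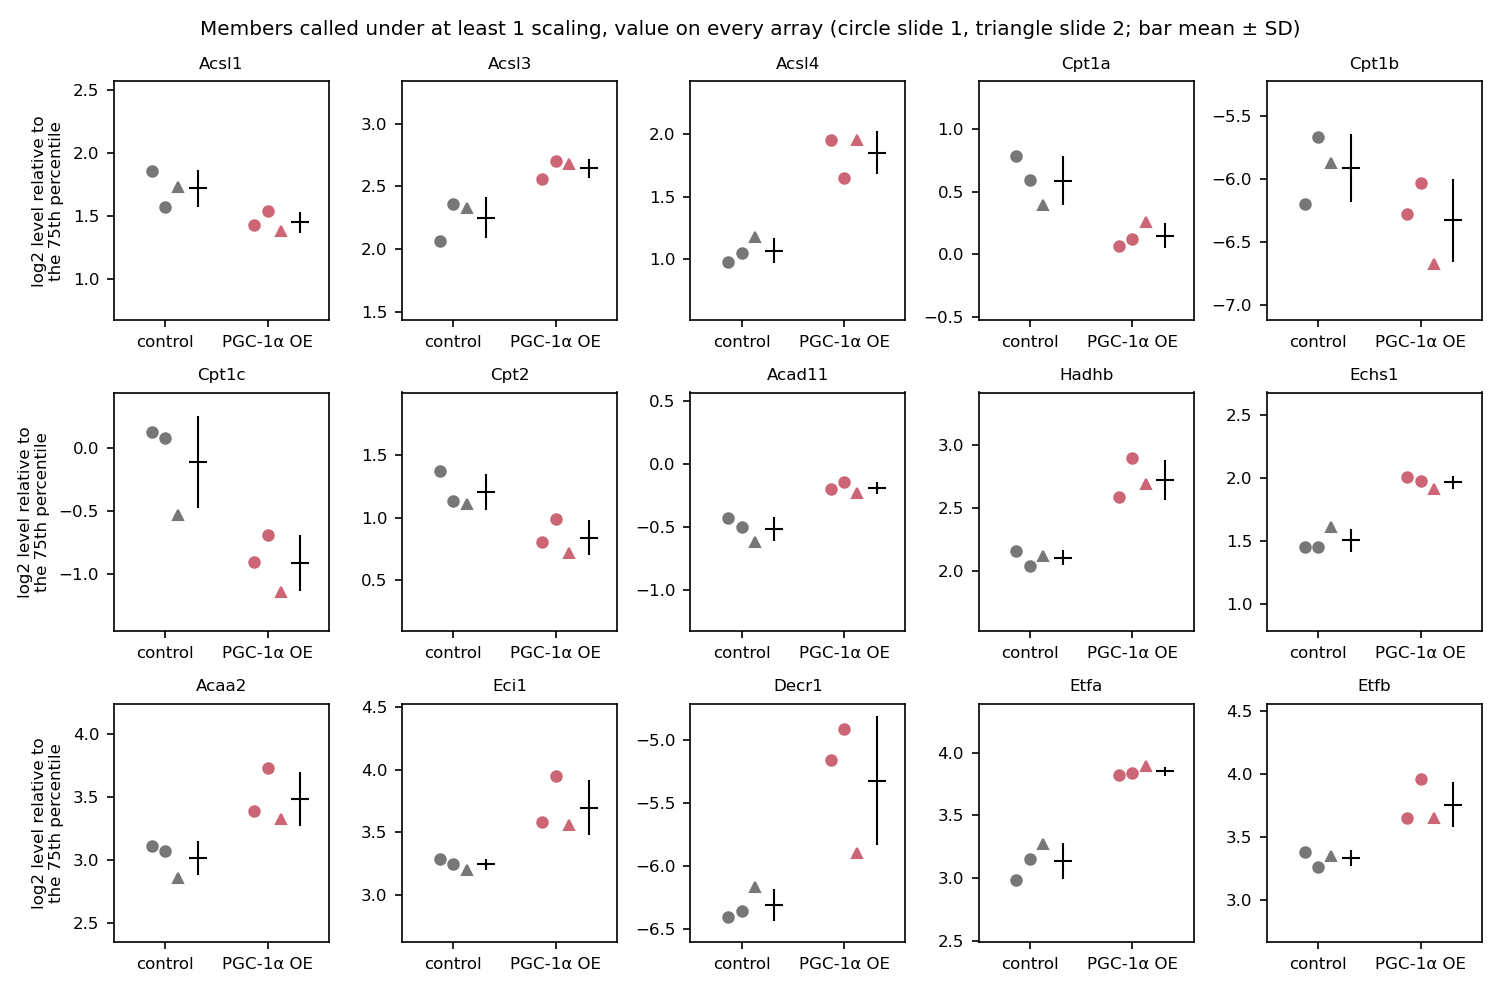
Level of each member called under at least 1 scaling, on each of the 6 arrays (log2, relative to the 75th percentile of the array; every panel spans the same height), for the control group and the PGC-1α overexpression group (PGC-1α OE); circles are arrays of slide 1 and triangles of slide 2, and the bar gives the mean ± SD. Only in the panel of Cpt1b do the groups overlap, and in the panel of Decr1 the overexpression array of slide 2 (-5.90) lies close to the controls.

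The acyl-CoA dehydrogenases, which take the first electrons from the fatty acid, showed little change. Of 7 genes, 1 was higher, none lower, and the median log2 fold change was 0.20 (-0.07 after quantile normalization). The exception was Acad11, a less studied member of the family, which read -0.43, -0.50 and -0.62 on the control arrays and -0.20, -0.14 and -0.23 with overexpression. Its groups did not overlap, with a log2 fold change of 0.33 ± 0.12 (adjusted p = 0.0419), or 0.35 (adjusted p = 0.0664) after quantile normalization. No fit that left out 1 array, of either group, called it (0.28 to 0.37), and its second probe gave 0.12 (adjusted p = 0.407 over all probes). For the classical members of the family, the log2 fold change was 0.25 for the very-long-chain enzyme gene Acadvl (adjusted p = 0.0962), 0.20 for the long-chain Acadl (adjusted p = 0.272), -0.26 for the medium-chain Acadm (adjusted p = 0.213) and 0.34 for the short-chain Acads (adjusted p = 0.121). Acadm, often used as a reporter of PPARα and ERRα activity, read -0.33, -0.16 and 0.05 on the control arrays and -0.45, -0.63 and -0.14 with overexpression, which overlapped. Acad9, which also serves in complex I assembly, gave -0.10 (adjusted p = 0.49), and Acad10 gave 0.19 (adjusted p = 0.289).

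Of the 5 genes for the later steps of the spiral, 3 were called higher, beside 36.9% of all genes. All 5 values were positive, as were those of 10738 of the 17062 genes, and Hadha and Hadh lay close to the median of all genes, 0.23. The median log2 fold change of the 5 was 0.46, and 0.25 after quantile normalization, when none was called. Hadhb, the thiolase subunit of the mitochondrial trifunctional protein, which handles long chains at the inner membrane, read 2.16, 2.04 and 2.12 in the control group and 2.59, 2.90 and 2.69 with overexpression. The groups lay clearly apart, with a log2 fold change of 0.62 ± 0.13 (adjusted p = 0.00529), and 0.33 (adjusted p = 0.0597) after quantile normalization. The call was kept in each fit that left out 1 array. A second Hadhb probe had only 1 value in the overexpression group, 2.97, against 2.46, 2.45 and 2.57 in the control group, since the scanner software marked its other spots as outliers, and it was not tested. Hadha, the partner subunit with hydratase and dehydrogenase activity, read -0.72, -0.76 and -1.05 on the control arrays and -0.61, -0.55 and -0.71 with overexpression, a log2 fold change of 0.22 (adjusted p = 0.19).

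Hadha and Hadhb are neighbours that point away from each other, so their promoter windows overlap and are shown for this reason. There are 272 bases between the starts on chromosome 5 of GRCm38.p6, Hadha at 30154980 on the minus strand and Hadhb at 30155253 on the plus strand. The windows share 228 bases, chr5:30155003-30155230, printed here on the plus strand.
Shared by Hadha and Hadhb: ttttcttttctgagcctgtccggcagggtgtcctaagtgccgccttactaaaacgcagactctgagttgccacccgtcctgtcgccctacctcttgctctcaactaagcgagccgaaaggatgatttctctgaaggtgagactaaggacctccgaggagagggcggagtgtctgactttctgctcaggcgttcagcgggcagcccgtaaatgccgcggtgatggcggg
To compare the pair, the level of Hadhb minus that of Hadha was taken on each array. It came to 2.89, 2.81 and 3.17 in the control group and 3.21, 3.45 and 3.40 with overexpression. The groups did not overlap, and the difference between them was 0.40 on the log2 scale (exact permutation p = 0.1, the smallest possible here) and 0.08 after quantile normalization. With 3 arrays in each group, this test could not reach the threshold.

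Echs1, the short-chain enoyl-CoA hydratase, read 1.45, 1.45 and 1.61 in the control group and 2.01, 1.98 and 1.91 with overexpression. Both groups were tight and separate, with a log2 fold change of 0.46 ± 0.12 (adjusted p = 0.0118), and 0.29 (adjusted p = 0.072) after quantile normalization. Its second probe was higher too, by 0.72 (adjusted p = 0.00705 over all probes), and stayed so after quantile normalization (0.62, adjusted p = 0.0165). The Echs1 window on the minus strand at chr7:140116372-140116671 held the half-site at position -83, shown in capitals.
Echs1: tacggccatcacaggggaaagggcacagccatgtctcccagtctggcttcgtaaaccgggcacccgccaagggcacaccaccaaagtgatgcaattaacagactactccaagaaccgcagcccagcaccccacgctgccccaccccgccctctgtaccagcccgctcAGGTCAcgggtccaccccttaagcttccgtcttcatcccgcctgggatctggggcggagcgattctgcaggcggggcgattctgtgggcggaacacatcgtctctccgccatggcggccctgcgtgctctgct
Acaa2, the thiolase that closes the spiral, read 3.11, 3.07 and 2.86 in the control group and 3.39, 3.73 and 3.33 with overexpression. Its log2 fold change of 0.47 (adjusted p = 0.0286) became 0.02 (adjusted p = 0.926) after quantile normalization, and the call was lost without control replicate 2 (0.50) or 3 (0.40) and without overexpression replicate 1 (0.52) or 2 (0.35). Hadh, the dehydrogenase for medium and short chains, gave 0.22 (adjusted p = 0.165) and 0.04 (adjusted p = 0.857).

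Of the genes for unsaturated fatty acids, whose enzymes move or remove double bonds that would block the spiral, Decr1 had the largest positive value of all members. It read -6.41, -6.36 and -6.17 on the control arrays and -5.16, -4.91 and -5.90 with overexpression. The groups did not overlap, but the overexpression array of slide 2 lay near the controls. Decr1 rose by 0.99 ± 0.24 on the log2 scale (adjusted p = 0.0097), with 1.35 on slide 1 and 0.27 on slide 2, and 0.75 (adjusted p = 0.0276) after quantile normalization. The single Decr1 probe was well above background on all 6 arrays, yet it was dim, and the log2 fold change ranged from 0.23 to 1.28 over the alternative settings, the lowest value being that with normexp and quantile normalization (adjusted p = 0.127), which was not called. Eci1, an isomerase of the mitochondrial matrix, read 3.29, 3.25 and 3.20 in the control group and 3.58, 3.95 and 3.56 with overexpression. Its log2 fold change of 0.45 (adjusted p = 0.0277) became -0.02 (adjusted p = 0.9) after quantile normalization, and the call was lost without any 1 of the control arrays (0.43 to 0.47). The related isomerase gene Eci2 gave 0.03 (adjusted p = 0.849) and -0.24 (adjusted p = 0.132).

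The electron transfer flavoprotein passes electrons from the dehydrogenases to the respiratory chain. Its alpha subunit gene, Etfa, read 2.99, 3.15 and 3.27 in the control group and 3.82, 3.84 and 3.89 with overexpression. The overexpression arrays lay close together (SD 0.04), and all were above the controls. Etfa rose by 0.72 ± 0.12 on the log2 scale (adjusted p = 0.0026), 1.64 times the control, and all 3 Etfa probes were higher (0.43, 0.72 and 0.53). After quantile normalization it was 0.26 (adjusted p = 0.129), without overlap between the groups, while the other probes gave 0.01 (adjusted p = 0.958 over all probes) and 0.11 (adjusted p = 0.583) with groups that overlapped. The beta subunit gene Etfb read 3.38, 3.26 and 3.35 in the control group and 3.65, 3.96 and 3.65 with overexpression, with a log2 fold change of 0.42 (adjusted p = 0.0274) and -0.05 (adjusted p = 0.764) after quantile normalization. The call of Etfb, too, was lost without any 1 of the control arrays (0.39 to 0.45). Etfdh, the oxidoreductase that receives these electrons in the membrane, had a log2 fold change of -0.28 (adjusted p = 0.311), and its groups overlapped.

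**Figure D3:**
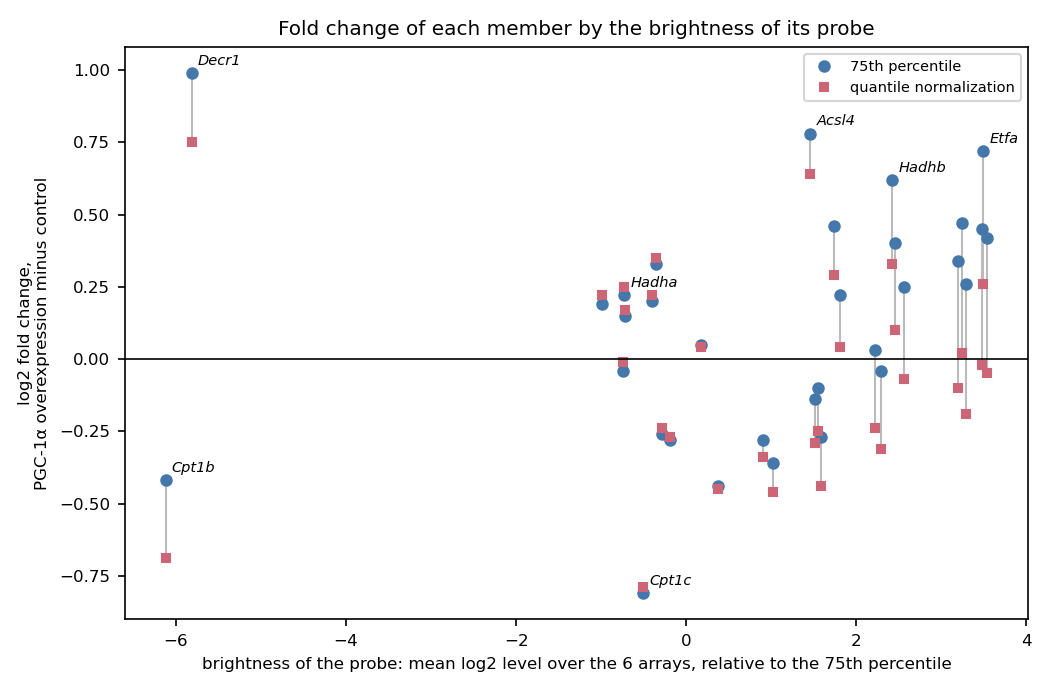
Log2 fold change of each of the 32 members (PGC-1α overexpression minus control) against the brightness of its probe (mean over the 6 arrays, log2, relative to the 75th percentile), with the 75th percentile (circles) and after quantile normalization (squares), joined by a line for each gene. The bright probes of Acaa2, Eci1, Etfa and Etfb lose most of their positive value, whereas Hadhb and Echs1 keep more of it (0.33 and 0.29). Genes between -1 and 1 in brightness change little, and the dim probes of Cpt1b and Decr1 also move down (by -0.27 and -0.24).

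Of the 8 members that were called higher with the 75th percentile alone, all but Acad11 had probes brighter than the 75th percentile of their arrays. The change in log2 fold change between the scalings ran from -0.47 to 0.03, and its correlation with probe brightness was -0.52 across the 32 members and -0.28 across all genes (Pearson's r, as a description, since all points share the same 6 arrays). For Acaa2, Eci1 and Etfb the positive value was lost altogether. For Acsl4, Acad11, Cpt1a, Cpt1c and Cpt2 the values differed little between the scalings. Within the slides, the median log2 fold change of the members was 0.17 on slide 1 and 0.17 on slide 2 with the 75th percentile, and -0.09 and 0.04 after quantile normalization. The calls of Acsl4, Cpt1c, Hadhb, Echs1, Decr1 and Etfa held without any 1 array. The share of all called genes that held so is not given here. These fits keep the same probe, so they do not test the probes that disagreed for Cpt1c (0.02) and Acsl4 (-0.24). All 13 members called had groups without overlap, so that the same sign on both slides followed of itself and is no further check. Of the 32 tested, 27 had the same sign on both slides, and the share of all genes is not given here.

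The members had 51 probes in all, and 48 were tested. Of these, 14 were higher, against 31.4% of all 24558 probes tested, and 2 were lower, against 21.3%. None of the 14 members with several tested probes had probes called in both directions. The signs of the probes differed for Acsl3, Acsl4, Cpt1c and Acaa1a. Groups without overlap were found for 18 of the 31 members with a value on every array, against 65.5% of all such genes.

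**Figure D4:**
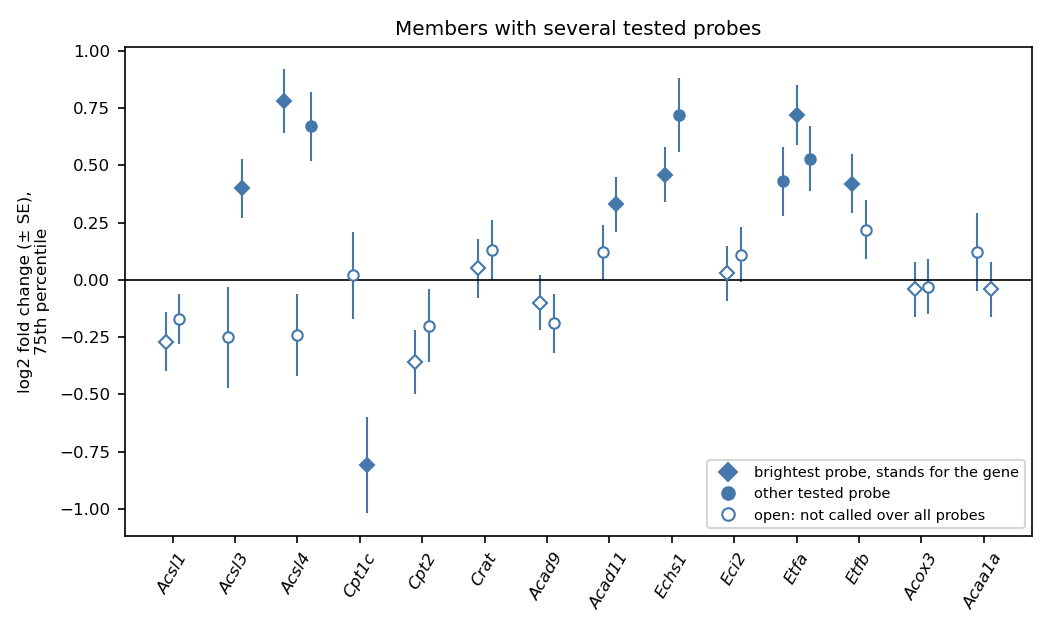
Log2 fold change (± SE, 75th percentile, 3 arrays against 3) of every tested probe of the 14 members with several tested probes; diamonds are the brightest probe, which stands for the gene, circles the others, and filled symbols are called at an adjusted p below 0.05 over all 24558 probes. All 3 probes of Etfa and both of Echs1 are filled and above 0, whereas the probes of Acsl4 and Cpt1c lie apart.

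The peroxisomal members were set apart from the mitochondrial and cytosolic ones. None of the 4 tested was called under either scaling. All 4 had negative values, as had 6324 of the 17062 genes. Acox3 and Acaa1a lay near 0, and the second probe of Acaa1a gave 0.12 (adjusted p = 0.589 over all probes). The median log2 fold change of the 4 was -0.09 (-0.30 after quantile normalization), against 0.22 (0.00) for the 28 mitochondrial and cytosolic members tested. The difference between these groups of genes was not tested. The log2 fold change was -0.04 for the oxidase gene Acox3 (adjusted p = 0.781), -0.14 for Hsd17b4, the multifunctional enzyme of the steps after the oxidase (adjusted p = 0.364), and -0.04 for the thiolase gene Acaa1a (adjusted p = 0.794), whose probes may share signal with its close copy Acaa1b. Crot, the carnitine octanoyltransferase that exports shortened chains from peroxisomes, read 1.06 and 1.02 on the control arrays of replicates 2 and 3, its spot on replicate 1 having been left out as an outlier, and 0.78, 0.61 and 0.89 with overexpression, a log2 fold change of -0.28 (adjusted p = 0.138). Ehhadh, the bifunctional peroxisomal enzyme and a well-known PPARα target, was well above background on none of the 6 arrays. Pdk4, the pyruvate dehydrogenase kinase that spares glucose when fat is burnt and a well-known target of PGC-1α in muscle, was well above background on none of the control arrays and on 1 overexpression array. Neither gene was tested, and no fold change is given for them.

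The regulators of the pathway were a list of 19 receptors, coactivators, kinases and enzymes of malonyl-CoA, of which 17 were tested. Here 5 were higher and 9 lower, with a median log2 fold change of -0.37, beside 36.9% of all genes higher, 19.6% lower and a median of 0.23. Under quantile normalization the list had 3 higher and 7 lower, with a median of -0.36, beside 21.7%, 20.9% and 0.03 for all genes. Prkaa1, the catalytic α1 subunit of AMP-activated kinase, which phosphorylates and inhibits the acetyl-CoA carboxylases, read -1.57, -1.41 and -1.19 on the control arrays and -3.36, -3.98 and -3.04 with overexpression. Each overexpression array was far below each control array, with a log2 fold change of -2.07 ± 0.24 (adjusted p = 0.000475), and -2.13 after quantile normalization, from its only probe. Acacb, the mitochondrial acetyl-CoA carboxylase that makes the malonyl-CoA which inhibits carnitine palmitoyltransferase 1, read -3.50, -3.22 and -3.47 on the control arrays and -1.96, -1.77 and -1.47 with overexpression. Its log2 fold change was 1.66 ± 0.16 (adjusted p = 0.000235), or 3.16 times the control, and 1.61 after quantile normalization. A second Acacb probe moved less, by 0.33 (adjusted p = 0.0536 over all probes), though without overlap. On the control arrays this second probe was the brighter one (mean of -3.02 against -3.39). With overexpression it was the dimmer one (-2.68 against -1.73). The mean of the tested probes gave 1.00 (adjusted p = 0.00106), and settings that keep the same probe do not test the choice of probe.

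Mlycd, the decarboxylase that removes malonyl-CoA, was chosen for mention after its value was seen. It read -0.44, -0.68 and -0.88 on the control arrays and -1.61, -1.66 and -1.59 with overexpression. The groups were far apart, with a log2 fold change of -0.95 ± 0.14 (adjusted p = 0.00142) and -0.93 after quantile normalization, and the second probe gave -1.66. Mlycd, Acacb and Prkaa1 were each called in these directions under all 17 alternative settings. They were named by their values on these same arrays, so this is no separate check. Prkaa2, the gene of the other catalytic subunit, was brighter than Prkaa1 (control mean of 0.47 against -1.39) and gave 0.21 (adjusted p = 0.253). Acaca, the other acetyl-CoA carboxylase gene, was brighter than Acacb (1.57 against -3.39). It gave -0.25 (adjusted p = 0.0891) and -0.39 (adjusted p = 0.0294) after quantile normalization. Prkaa2 and Acaca were also chosen for mention after their values were seen. Esrrg, the estrogen-related receptor γ and a partner of PGC-1α, read -2.58, -2.08 and -1.85 in the control group and -3.25, -3.89 and -3.26 with overexpression, a log2 fold change of -1.29 (adjusted p = 0.00322), and its second probe gave -1.20. Esrra, the gene of ERRα, also mentioned after its value was seen, had a log2 fold change of 0.46 (adjusted p = 0.0171) and 0.21 (adjusted p = 0.229) after quantile normalization. Its call was lost without control replicate 1 (0.44) or 3 (0.43) and without overexpression replicate 1 (0.47). Ppara, the gene of PPARα, gave -0.16 (adjusted p = 0.385) and -0.32 (adjusted p = 0.128) after quantile normalization. Ppara, too, was chosen for mention after its value was seen.

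**Figure D5:**
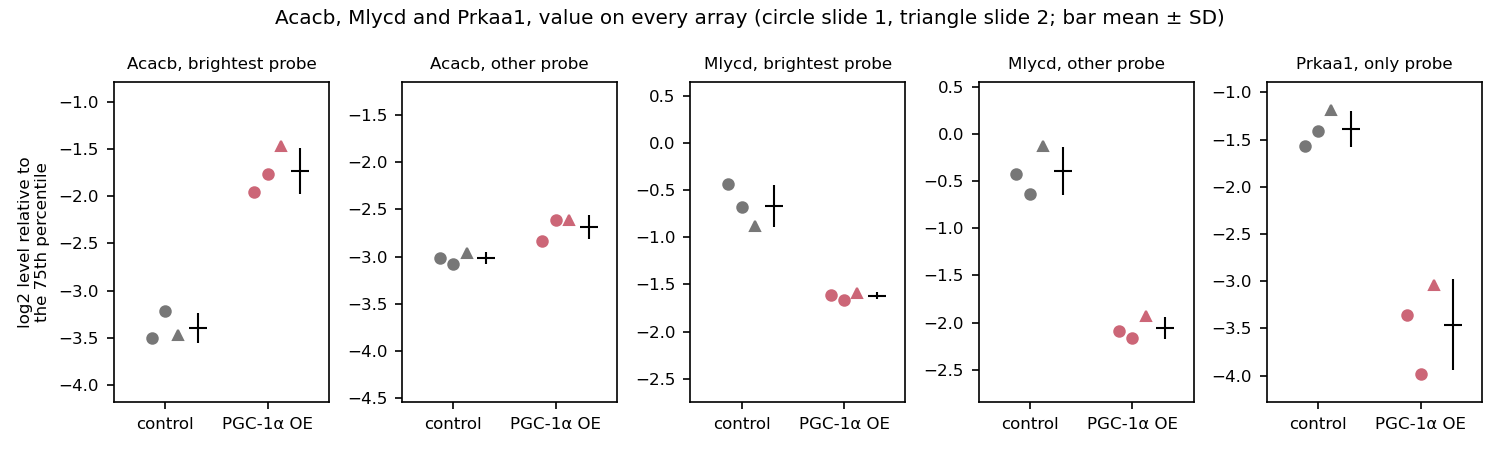
Levels on each of the 6 arrays (log2, relative to the 75th percentile; every panel spans the same height) for each probe of Acacb and Mlycd, which make and remove malonyl-CoA, and for the probe of Prkaa1, in the control and the PGC-1α overexpression group (PGC-1α OE); circles are slide 1, triangles slide 2, bars mean ± SD. Both Acacb probes are higher and both Mlycd probes and Prkaa1 lower on every overexpression array, with a smaller gap for the second Acacb probe.

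Around the oxidation pathway, genes of fatty acid uptake, storage and release were called 7 higher and 5 lower of 20 tested (2 and 6 after quantile normalization), with a median log2 fold change of 0.15. Over all genes 36.9% were higher and 19.6% lower, and 21.7% and 20.9% with the quantile scaling. Lipe, the hormone-sensitive lipase, had a log2 fold change of -0.82 (adjusted p = 0.0054). G0s2 and Hilpda, which both inhibit the triglyceride lipase of lipid droplets, gave 0.73 (adjusted p = 0.00589) and 0.69 (adjusted p = 0.00897). These 3 genes were called in the same direction under all 17 alternative settings. They were named for large values on these same arrays, so this is no separate check. Each had only 1 probe, so the choice of probe was not tested.

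Of the enzymes of carnitine supply, ketone bodies and branched-chain acyl-CoA, 16 were tested, 7 were higher and 1 lower, with a median log2 fold change of 0.34, beside 36.9% higher, 19.6% lower and a median of 0.23 for all genes. Quantile normalization left 2 higher and 1 lower, beside 21.7% and 20.9%. Pccb, a subunit of propionyl-CoA carboxylase, rose by 0.98 (adjusted p = 0.00303) and by 0.91 (adjusted p = 0.00719) after quantile normalization. Ivd, the isovaleryl-CoA dehydrogenase of leucine breakdown, rose by 0.63 (adjusted p = 0.016), with 0.33 (adjusted p = 0.167) after quantile normalization, and its call was lost without control replicate 3 (0.51). A second Ivd probe gave 0.21 (adjusted p = 0.16 over all probes).

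Among the other peroxisomal lipid enzymes and carriers, 5 of 14 tested were higher and 3 lower (3 and 2 after quantile normalization), beside 36.9% and 19.6% of all genes (21.7% and 20.9%). Acox2, the oxidase for branched chains and bile acid precursors, had a log2 fold change of 1.54 (adjusted p = 0.00484), the thioesterase gene Acot4 0.92 (adjusted p = 0.0135), and Hacl1, the lyase of α-oxidation, -0.71 (adjusted p = 0.00303). The call of Acot4 was lost without overexpression replicate 1 (0.79). Acox2, Acot4 and Hacl1 were named for their large values, so they are not compared with the peroxisomal members described earlier. The median log2 fold change of the 14 genes was 0.05 (-0.09 after quantile normalization). The second probe of Hacl1 gave -0.40 (adjusted p = 0.0756 over all probes), and those of Acox2 and Acot4 were too dim to be tested. The list of fatty acid synthesis had 4 genes higher and 2 lower of 12 tested (3 and 3 after quantile normalization), near the shares of all genes. Mcat, the malonyl transferase of mitochondrial fatty acid synthesis, read 1.14, 0.95 and 1.10 on the control arrays and -0.93, -0.75 and -0.77 with overexpression. This was a clean separation, with a log2 fold change of -1.88 ± 0.12 (adjusted p = 4.35e-05) and -1.92 after quantile normalization. The elongase gene Elovl6 gave -0.89 (adjusted p = 0.00534), and Mlxipl, which encodes the glucose-responsive factor ChREBP, 0.71 (adjusted p = 0.0158). The call of Mlxipl was lost without control replicate 1 (0.61) or 2 (0.66). Its second probe gave 0.36 (adjusted p = 0.0615 over all probes), and the second probe of Mcat gave -1.64 (adjusted p = 0.00104).

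Markers of cell types are given beside the shares of all genes, 36.9% higher and 19.6% lower (21.7% and 20.9% after quantile normalization). Of the 9 microglial and macrophage markers tested, 5 were higher with the 75th percentile and none after quantile normalization, and the log2 of their summed level ran from 6.47 to 6.52 on the control arrays and from 6.97 to 7.23 with overexpression. Of the 4 fibroblast markers, 3 were higher and 1 was lower (2 and 1 after quantile normalization), with a log2 summed level of 3.94 to 4.05 in the control group and 4.73 to 5.0 with overexpression. Astrocyte markers gave 2 higher of 3 tested under both scalings, and neuron markers 2 higher and 1 lower of 3 (1 and 1 after quantile normalization). None of the 4 oligodendrocyte markers was called, and 2 of the 4 hepatocyte and adipocyte markers were tested and both were higher under both scalings. Well above background on all 6 arrays were 3 of 4 astrocyte, 2 of 4 neuron, 3 of 4 oligodendrocyte, 4 of 4 fibroblast and 2 of 4 hepatocyte and adipocyte markers, whereas Slc1a3, Syt1, Alb and Ucp1 were so on no array. The part of these changes in the values of the fatty acid oxidation genes was not tested.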

How the data were processed

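RNA of BV2 cells after LPS was measured on 6 arrays, 3 labelled as control and 3 as PGC-1α overexpression, with groups, slides and replicate numbers as labelled. Per the file headers, the authors' scanner software (Agilent Feature Extraction 11.5.1.1) had subtracted the background and removed spatial trends, and the deposited intensity values of the green channel were not normalized between arrays. The authors also deposited log2 values normalized in GeneSpring by a procedure not given in the sources used here. Across arrays the median of that table ran from 8.2934 to 8.2943, and every column followed the intensity of its array (Pearson's r of at least 0.9988 across probes, log2), which settles scale and direction but not the centring. The labels name the dye as both Cy3 and Cy5. The deposited files left 0 columns of samples unused.

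The log2 intensity was taken, less the array's 75th percentile over 59305 non-control spots. Spots flagged as outliers, 149 to 1590 on an array, were dropped, and the spots of a probe were averaged. Of 56605 probes, 33767 (59.7%) were matched by accession to a table of RefSeq genes (GRCm38.p6). Coordinates are given only for promoter windows of the RefSeq table, since the array design was made on another assembly. Testing required values from 2 or more arrays in both groups and a signal well above background on every array of 1 group or both, and a gene was read from its brightest such probe. Differences were tested in R 4.3.3 with limma 3.58.1 (lmFit and eBayes, two-sided), and p-values were adjusted by Benjamini-Hochberg across all genes, or across all probes where stated. The steps were tested on simulated data. Values written as log2 fold changes are differences of group means, overexpression minus control, with their SE. Python 3.11.15 with pandas 2.3.3 and numpy 2.4.6 served for the tables, and matplotlib 3.10.9 for the plots.

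All 34 members are named. Of each further list, the 3 genes with the largest absolute log2 fold change among those called without overlap of the groups are named, beside Ppargc1a, and others where stated. One gene that this rule names is not reported here. The members and lists were chosen with earlier results of these data known. Samples with the same replicate number did not deviate together for every pair (Pearson's r of -0.163, 0.0711 and 0.598 over 16296 genes), so the numbers were not taken as pairs. Alternatives were quantile normalization, the median of each array, normexp with an offset of 50 on the median spot and background signals (the files hold no mean signal), no filter or a stricter filter on dim probes, averaging of probes, blocking on slide or on replicate number, limma's robust variance trend, the authors' log2 values, and each array left out. The number of arrays limits the precision.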

Additional observations from a re-analysis of the deposited data

How the results depend on the processing

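The counts of members called and the sign of weak values depended mainly on the scaling between arrays. Against 10 members higher and 3 lower, quantile normalization gave 2 and 5, normexp with quantile normalization 3 and 5, the log2 values of the authors 4 and 6, and the median of each array 4 and 4. Without a filter on dim probes 5 were higher and 1 lower of all 34, and with the mean of the probes 7 and 1. The other filter, the variance trend and the slide as a block kept 10 and 3, normexp with the 75th percentile gave 9 and 3, and leaving out 1 array gave 5 to 8 higher and 1 to 2 lower. The median log2 fold change of the members, 0.19, turned to -0.04 with quantile normalization, -0.04 with normexp and quantile normalization and -0.06 with the values of the authors, and lay between 0.12 and 0.21 without 1 array. With the replicate block the counts stayed at 10 and 3, and no call of a named gene changed. Replicates 1 and 2 of the control group correlated best with a differently numbered overexpression array.

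Signs turned for the following genes, and of the turned values only that of Eci2 with normexp and quantile normalization was called (adjusted p = 0.0458). With quantile normalization they were Acads (-0.10), Acadvl (-0.07), Acsl5 (-0.19), Eci1 (-0.02), Eci2 (-0.24) and Etfb (-0.05). With normexp and quantile normalization they were Acads (-0.08), Acsl5 (-0.18), Crat (0.00), Eci1 (-0.06), Eci2 (-0.28) and Etfb (-0.09). With the values of the authors they were Acaa2 (0.00), Acads (-0.12), Acadvl (-0.09), Acsl5 (-0.21), Eci1 (-0.05), Eci2 (-0.25) and Etfb (-0.08). The median of each array turned Crat (-0.06) and Eci2 (-0.08), normexp with the 75th percentile Cpt1b (0.25), Crat (0.00) and Eci2 (-0.04), the mean of the probes Acaa1a (0.04), and leaving out 1 array turned Eci2 (range -0.02 to 0.06, negative without control replicate 2) and Acox3 (0.01 without overexpression replicate 2). The cause was not tested. Dim probes such as those of Decr1 and Cpt1b are limited by their signal over background.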
